A study of Homo sapiens with 12 samples.

Results

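The starts of 4 human genes that encode H3K9 methyltransferases, EHMT1, EHMT2, SUV39H2 and SETDB1, were examined for acetylation and dimethylation of lysine 9 of histone H3 (H3K9ac and H3K9me2). The members were chosen by name, and each was taken as a window of 5 kb either side of a given start position on hg19. The 4 windows were set against 10 kb windows centred on the 21916 merged H3K9ac regions that the authors kept as reproducible in either condition. The cells were MDA-MB-231, a human triple negative breast cancer line, serum starved overnight. The treated cells received 500 µM DETA/NO, a slow-release nitric oxide donor, for 24 h, and the untreated cells served as control. For each mark there were 2 biological replicates of treated and 2 of untreated cells, all from the one cell line. The 4 input samples, 2 treated and 2 untreated, were not analysed here, and the labels do not say whether untreated cells received a vehicle.

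Methylation of H3K9 is written by a family of SET domain enzymes. EHMT1 (GLP) and EHMT2 (G9a) form a heterodimer that places most mono- and dimethylation of H3K9 in euchromatin, so both are writers of the H3K9me2 mark mapped here. SUV39H2 trimethylates H3K9 in pericentric heterochromatin, and SETDB1 trimethylates it at sites such as endogenous retroviruses, to which it is brought by the corepressor TRIM28. Acetylation of the same residue marks active promoters and cannot stand on a lysine that carries methyl groups. Positions on hg19 were not used for other genes of this system (SUV39H1, SETDB2, PRDM2, SETMAR, TRIM28, ATF7IP, WIZ, CBX1, CBX3 and CBX5), which were not analysed here, and cell type markers were not checked for the same reason.

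The sequence just before each start is shown because the H3K9ac described below lies around these starts. These are the 250 bases upstream of the annotated start in RefSeq on GRCh38.p14, 5′ to 3′ in the direction of transcription, with CpG dinucleotides in capitals. The build differs from that of the peaks, so no peak edge was placed on these letters. These RefSeq starts were not matched to the hg19 positions of the windows. SETDB1 had 2 promoter entries, and only the one at the start of the gene in RefSeq is shown.
EHMT1 (GRCh38.p14 chr9:137618755-137619004, plus strand): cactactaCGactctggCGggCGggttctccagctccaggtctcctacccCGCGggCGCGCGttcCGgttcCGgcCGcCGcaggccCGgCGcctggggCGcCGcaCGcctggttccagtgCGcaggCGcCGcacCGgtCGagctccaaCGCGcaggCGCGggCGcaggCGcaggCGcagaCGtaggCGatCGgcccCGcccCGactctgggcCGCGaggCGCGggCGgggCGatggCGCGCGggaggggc
EHMT2 (GRCh38.p14 chr6:31897699-31897948, minus strand): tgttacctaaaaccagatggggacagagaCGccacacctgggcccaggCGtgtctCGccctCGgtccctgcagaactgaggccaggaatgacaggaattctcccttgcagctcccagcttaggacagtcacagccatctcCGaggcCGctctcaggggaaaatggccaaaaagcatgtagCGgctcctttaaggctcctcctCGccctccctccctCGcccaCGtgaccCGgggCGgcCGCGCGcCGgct
SUV39H2 (GRCh38.p14 chr10:14878616-14878865, plus strand): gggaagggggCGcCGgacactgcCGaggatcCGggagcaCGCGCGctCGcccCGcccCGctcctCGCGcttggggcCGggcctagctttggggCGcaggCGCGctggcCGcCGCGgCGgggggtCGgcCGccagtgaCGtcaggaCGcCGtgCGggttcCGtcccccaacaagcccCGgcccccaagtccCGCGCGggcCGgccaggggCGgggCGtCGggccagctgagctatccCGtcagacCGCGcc
SETDB1 (GRCh38.p14 chr1:150926013-150926262, plus strand): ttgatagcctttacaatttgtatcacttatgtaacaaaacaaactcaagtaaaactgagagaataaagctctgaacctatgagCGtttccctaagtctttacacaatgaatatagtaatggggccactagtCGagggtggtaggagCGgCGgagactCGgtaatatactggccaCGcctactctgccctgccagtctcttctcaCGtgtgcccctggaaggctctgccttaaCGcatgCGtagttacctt

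The 4 upstream sequences fell into a CpG-rich and a CpG-poorer pair. EHMT1 held 43 CpG dinucleotides at 78.8% G+C and SUV39H2 held 38 at 79.6%, more than in 99.0% and 96.7% of the 35116 RefSeq promoters. EHMT2 held 16 at 63.2% and SETDB1 held 9 at 46.0%, around the median promoter, which held 11. Exact matches were counted on both strands, overlaps allowed. GGGCGG, the core letters of GC boxes, occurred 3 times upstream of EHMT1, 2 times upstream of SUV39H2 and 1 time upstream of EHMT2, and 42.6% of promoters held it. CACGTG, the E-box letters, occurred 1 time each upstream of EHMT2 and SETDB1, against 6.34% of promoters. TGCGCA occurred 1 time upstream of EHMT1, against 6.89% of promoters. The other motifs searched had no match in these 4 windows. They were CCAAT, held by 32.0% of promoters, the TATA-box letters TATAAA, held by 10.7%, and the ETS-type letters CCGGAAG, held by 8.52%.

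The library lists of H3K9ac held 79520 and 69089 peaks in treated cells, covering 52.1 and 37.8 Mb, and 120521 and 59678 peaks in untreated cells, covering 48.3 and 22.7 Mb, replicates 1 and 2 in that order. The lists hold intervals and the authors' scores, not reads, so depth is unknown. H3K9ac is therefore given as the length that called peaks covered, which can move with list length.

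All 4 starts carried H3K9ac in both conditions. The start base lay in a called peak in 8 of 8 pairs of start and treated library and in 6 of 8 pairs of start and untreated library. Both exceptions were in untreated replicate 2, where the start of EHMT1 fell between a peak ending 124 bp upstream and a peak beginning 30 bp downstream, and that of SUV39H2 between peaks ending 50 bp upstream and beginning 67 bp downstream. Each start also lay in a reproducible region of both conditions. The strongest peak anywhere in each window ranked high within its own list by the authors' score. Those of SUV39H2 stood in the top 0.615% and 0.802% in treated lists and in the top 1.64% and 1.69% in untreated lists. For EHMT2 in untreated replicates 1 and 2 the strongest was a separate peak, 3573 and 3618 bp upstream, and not the peak over the start. SETDB1 ranked lowest of the 4, in the top 7.17% and 11.1% in treated lists and the top 4.85% and 3.98% in untreated lists. Lists differ in length, so these ranks give no change between conditions.

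**Figure D1:**
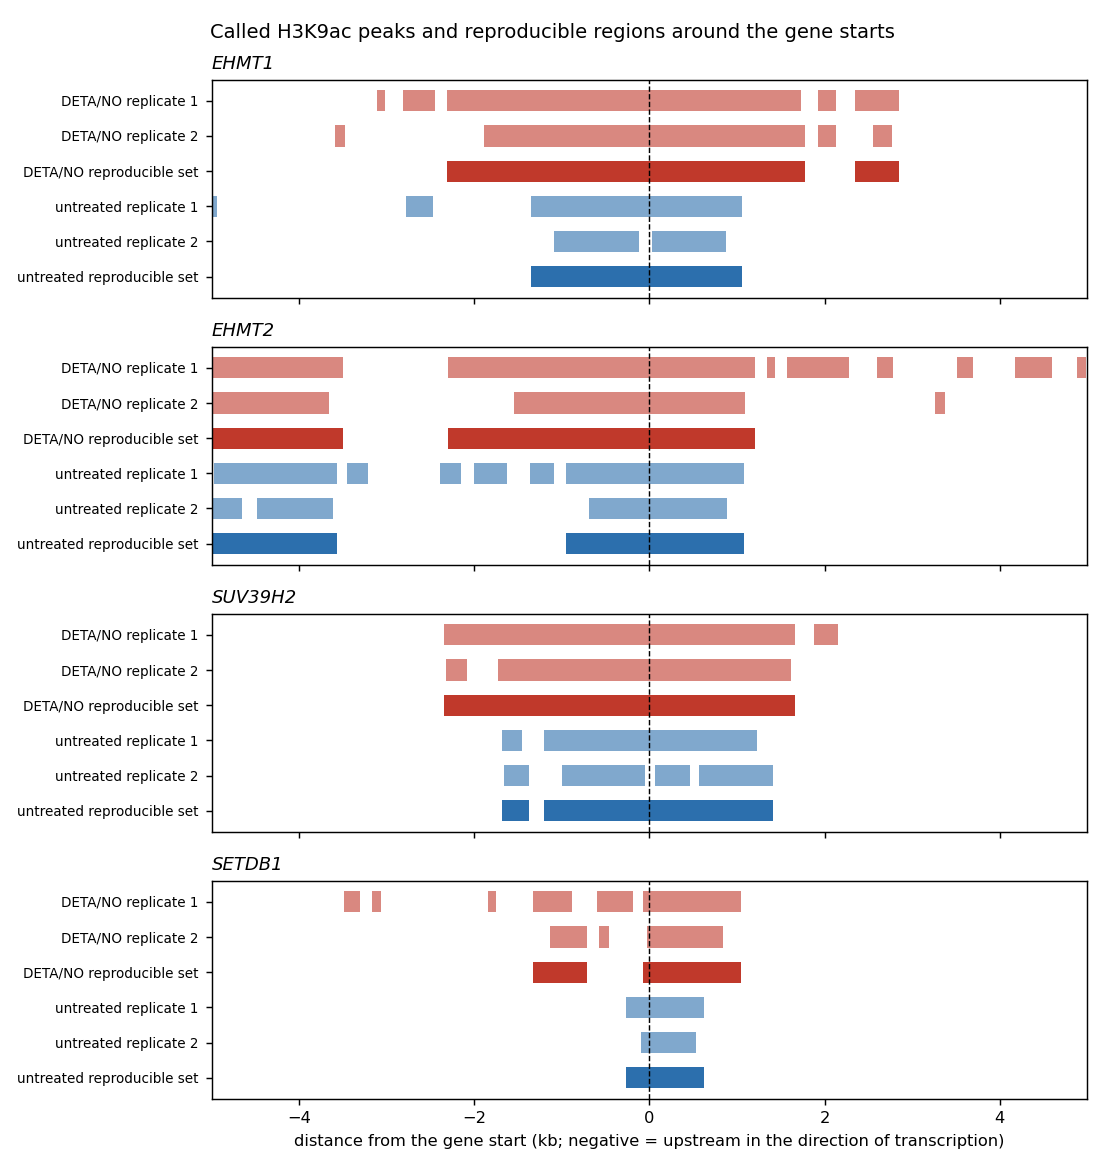
Called H3K9ac intervals around the 4 gene starts, by distance from the start in kb in the direction of transcription, with DETA/NO libraries and their reproducible set above the untreated ones in each panel; bars are intervals. The peak over the EHMT1 start spans 4044 and 3664 bp in the DETA/NO libraries, and in untreated replicate 2 a gap lies at the start.

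EHMT1, the GLP subunit of the dimethylating heterodimer, had the largest difference of the 4 in H3K9ac covered length with all libraries in use. Its window was chr9:140508444-140518443. Peaks covered 5225 and 4201 bp of it in treated cells, against 2788 and 1819 bp in untreated cells. Each treated library covered more than either untreated one, and the means were 4713 bp ± 724 in treated and 2304 bp ± 685 in untreated cells (SD, n = 2 each), a ratio of 2.05. The peak over the start ran from 2312 bp upstream to 1731 bp downstream and from 1884 to 1779 bp in the treated libraries. In untreated replicate 1 it ran from 1351 bp upstream to 1059 bp downstream. The reproducible region at the start was 4092 bp wide in the treated set, against 2411 bp in the untreated set. A second reproducible region of 503 bp, 2345 to 2847 bp into the gene, was in the treated set alone. It ranked near the end there, at 20655 of 21096. In RefSeq on GRCh38.p14 another gene, ARRDC1-AS1, starts on the opposite strand within 5 kb upstream of EHMT1.

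In limma's test with Benjamini-Hochberg adjustment over 21920 windows, the covered share at EHMT1 was higher in treated cells by 0.258 ± 0.0746 (SE, arcsine square root scale, adjusted p = 0.0379), and both treated libraries showed the direction. Limma called 21.3% of all windows higher and 2.20% lower. Leaving out any 1 of the 4 libraries, treated or untreated, ended the call, with adjusted p-values from 0.105 to 0.400 and differences of 18.98 to 29.2 percentage points, against 24.1 points with all 4. It was also lost when lists were cut to their 20000 highest-scoring peaks (adjusted p = 0.0653), with 10 kb tiles of the genome as the other features (adjusted p = 0.147) and after quantile normalization (adjusted p = 0.475). Over all 12 alternatives the adjusted p at EHMT1 ran from 0.00626 to 0.475.

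EHMT2, the G9a subunit, lies on the minus strand in the class III part of the major histocompatibility complex, and its window was chr6:31860464-31870463. Peaks covered 6704 and 4092 bp in treated cells, against 4560 and 2784 bp in untreated cells. The conditions overlapped, since treated replicate 2 lay below untreated replicate 1. The means were 5398 bp ± 1847 in treated and 3672 bp ± 1256 in untreated cells (SD, n = 2 each; exact two-sided permutation p = 0.667). Limma gave an adjusted p of 0.182. The difference of 17.3 percentage points became 4.2 without treated replicate 1, 30.3 without treated replicate 2, 26.1 without untreated replicate 1 and 8.38 without untreated replicate 2.

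The H3K9ac over the EHMT2 start itself was wider in both treated libraries than in both untreated ones. That peak measured 3505 and 2637 bp in treated cells and 2026 and 1571 bp in untreated cells. It reached 2295 and 1550 bp upstream in treated cells, against 948 and 690 bp in untreated cells. Downstream, by contrast, it reached 1209 and 1086 bp in treated cells, against 1077 and 880 bp in untreated cells. The share of all regions with a peak wider in both treated libraries was not computed. A separate H3K9ac block began about as far upstream in each library, with its nearest edge 3503 and 3659 bp from the start in treated cells and 3573 and 3618 bp in untreated cells. Its reproducible region was 1955 bp wide in treated and 1497 bp in untreated cells. In RefSeq on GRCh38.p14 the genes that start within 5 kb upstream of EHMT2 are C2, on the opposite strand, and ZBTB12, on the same strand. The block was not assigned to either.

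SUV39H2, an enzyme of pericentric heterochromatin, had the closest replicates. Peaks in its window, chr10:14915819-14925818, covered 4284 and 3591 bp in treated cells, against 2665 and 2479 bp in untreated cells. The means were 3938 bp ± 490 in treated and 2572 bp ± 132 in untreated cells (SD, n = 2 each), a ratio of 1.53, and the conditions did not overlap. Limma's adjusted p was 0.109. Treated cells had single peaks of 4009 and 3353 bp over the start, and untreated replicate 1 one of 2427 bp. In untreated replicate 2 that stretch was split into 3 peaks of 950, 391 and 850 bp. A non-coding gene, SUV39H2-DT, starts on the opposite strand within 5 kb upstream in RefSeq on GRCh38.p14.

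SETDB1, the retroelement-silencing enzyme, had the narrowest H3K9ac. Its window was chr1:150893815-150903814, and peaks covered 2368 and 1398 bp in treated cells, against 898 and 628 bp in untreated cells. The conditions did not overlap, with means of 1883 bp ± 686 in treated and 763 bp ± 191 in untreated cells (SD, n = 2 each), a ratio of 2.47. Limma's adjusted p was 0.124. It was 0.0345 when only windows on regions of both reproducible sets entered the fit, a choice added after seeing the data, in which limma called 33.6% of windows higher and 0.325% lower. Over all 12 alternatives the adjusted p at SETDB1 ran from 0.0329 to 0.877. The difference of 11.2 percentage points became 2.30 with the 20000 highest-scoring peaks of each list, and 6.35 without treated replicate 1.

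At SETDB1 the added length lay mostly in separate upstream peaks rather than in the peak over the start. That peak measured 1120 and 866 bp in treated cells and 898 and 628 bp in untreated cells, so the conditions overlapped. Upstream coverage was 1325 and 560 bp in treated cells, against 271 and 97 bp in untreated cells. Both treated libraries had a peak between 1330 and 715 bp upstream (442 and 418 bp wide), which formed a reproducible region of 616 bp in the treated set, at rank 19181 of 21096. Untreated cells had no peak in the window other than the one over the start. In RefSeq on GRCh38.p14 another gene, LOC107985204, starts on the opposite strand within 5 kb downstream of SETDB1.

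**Figure D2:**
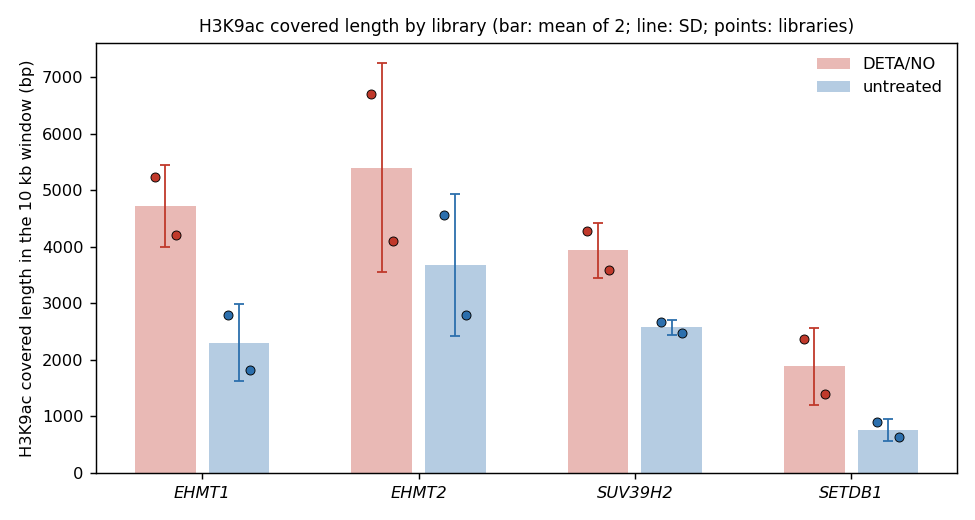
H3K9ac covered length in bp within the 10 kb window of each gene, DETA/NO left of untreated, with bars for the mean of 2 libraries, lines for the SD and points for single libraries. The 2 conditions are apart at EHMT1, SUV39H2 and SETDB1, and at EHMT2 DETA/NO replicate 2 (4092 bp) lies under untreated replicate 1 (4560 bp).

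In 3 of the 4 windows H3K9ac covered more in both treated than in both untreated libraries, and 81.8% of the windows on merged reproducible regions did the same, as did 86.1% of those on regions of both sets. The members' count is thus near the background. The reverse held in 0 members, in 3.15% of the first background and in 0.536% of the second. Both backgrounds rest on regions called in these libraries, which can raise their shares. The median difference was 15.5 percentage points over the 4 members, 10.3 over the windows on all 21916 merged regions and 11.6 over those on the 11387 regions of both sets. With 2 libraries against 2, an exact permutation test cannot give a p below 0.333, which was its value at EHMT1, SUV39H2 and SETDB1.

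Treated libraries had more coverage in most windows, with a median arcsine difference of 0.161 over all 21920. Relative to that median, EHMT1 stood 0.0970 higher, EHMT2 0.0170 and SETDB1 0.00576 higher, and SUV39H2 at -0.0149. Quantile normalization, which gives the libraries equal distributions, took the median to -0.00637 and the calls to 1.82% higher and 3.17% lower. After it EHMT1 (0.0577) and SETDB1 (0.0182) kept a positive difference, while EHMT2 (-0.0574) and SUV39H2 (-0.0482) turned negative. None of the 4 passed limma's test in that fit. In a separate fit without quantile normalization, each list was cut to its 59678 highest-scoring peaks, so that list lengths were equal. The differences were then 21.5 percentage points at EHMT1, 15.9 at EHMT2, 13.5 at SUV39H2 and 10.2 at SETDB1. Limma's adjusted p at EHMT1 was 0.0333 there, and the others stayed above the threshold of 0.05. That fit called 8466 of 21919 windows higher and 285 lower.

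**Figure D3:**
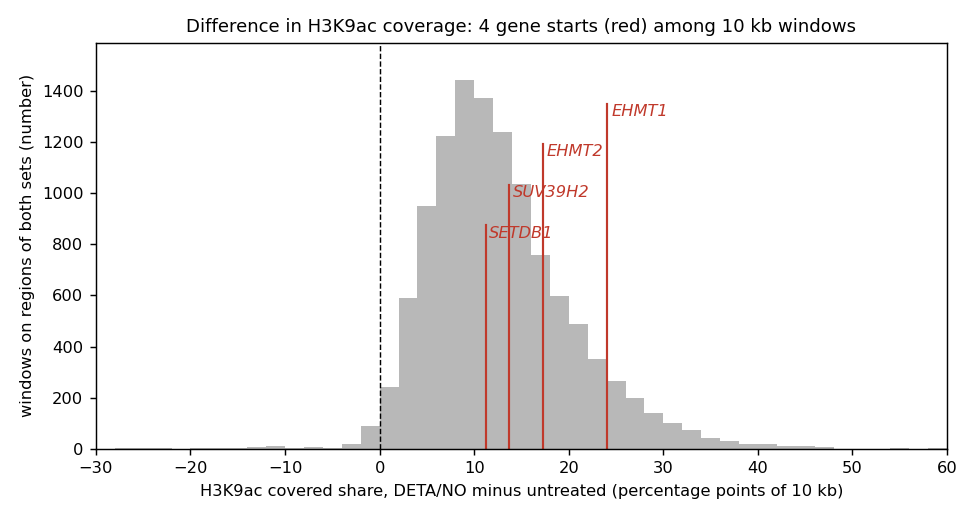
Difference in H3K9ac covered share, DETA/NO minus untreated in percentage points of the 10 kb window, for the 11387 windows on regions of both reproducible sets (grey, number of windows) and the 4 gene starts (red lines). The members lie between 11.2 (SETDB1) and 24.1 (EHMT1), within the spread of the other windows, whose 5th and 95th percentiles are 2.72 and 26.7; after quantile normalization EHMT2 and SUV39H2 change sign.

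The distance from the start showed where the coverage differed. Within 1 kb of the start, coverage was complete in both treated libraries at EHMT1, EHMT2 and SUV39H2. In untreated cells it was 100% and 86.4% at EHMT1, 97.5% and 78.6% at EHMT2, and 100% and 88.9% at SUV39H2. At EHMT1 and SUV39H2 untreated replicate 1 was as full as the treated libraries, whereas at EHMT2 both untreated libraries lay below both treated ones. From 1 to 2 kb, EHMT1 was covered to 90.3% and 87.2% in treated cells, against 20.6% and 4.60% in untreated cells. SUV39H2 was covered to 89.3% and 67.7% in treated cells, against 33.3% and 35.1% in untreated cells in that ring. EHMT2 had 86.9% and 31.9% in treated cells, against 36.4% and 0% in untreated cells, so its conditions overlapped in the ring and were apart within 1 kb. At EHMT1 and SUV39H2 this ring separated the conditions most. Within 1 kb, both treated libraries and untreated replicate 1 were at the limit of 100% at these genes, so that zone could not set the conditions apart. The share of other windows with the conditions apart in either zone was not computed.

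SETDB1 differed from the other 3 starts in that its core was not full in any library. Within 1 kb it was covered to 80.3% and 63.3% in treated cells, against 44.9% and 31.4% in untreated cells, and from 1 to 2 kb to 23.6% and 6.60% in treated cells, against 0% in both untreated libraries. Around the centres of regions of both sets, mean coverage within 1 kb was 89.9% and 81.6% in treated cells. In untreated cells it was 63.5% and 51.7%. From 1 to 2 kb that mean was 43.4% and 29.6% in treated cells and 18.5% and 12.6% in untreated cells. The background means within 1 kb were thus also short of full coverage in every library, and SETDB1 lay below them in each. The background means of the conditions stood further apart within 1 kb than from 1 to 2 kb. Regions are not aligned to gene starts, so the values of SETDB1 and of the regions are given side by side with no test.

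**Figure D4:**
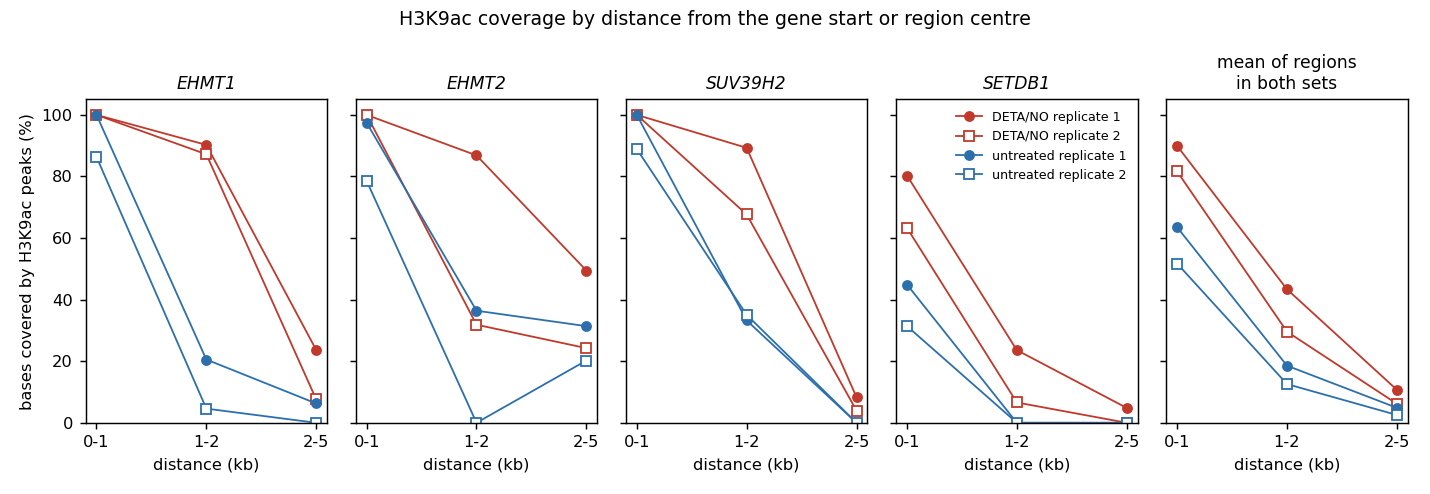
Share of bases in % covered by H3K9ac peaks by distance from the gene start in kb, with 1 line per library (red DETA/NO, blue untreated), and at right the mean around the centres of 11387 regions in both sets. At EHMT1 and SUV39H2 untreated replicate 1 meets the DETA/NO libraries at 100% within 1 kb, while untreated replicate 2 lies below them. The conditions part there between 1 and 2 kb, whereas SETDB1 is below 100% in all 4 libraries within 1 kb.

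Bases in both treated and neither untreated library numbered 1619 at EHMT1, 335 at EHMT2, 662 at SUV39H2 and 569 at SETDB1. The reverse, in both untreated and neither treated library, was 0 at EHMT1, EHMT2 and SUV39H2 and 20 at SETDB1. Of the bases that both untreated libraries covered, 100% at EHMT1, 98.5% at EHMT2, 100% at SUV39H2 and 89.0% at SETDB1 were also in both treated libraries. These shares leave out bases that 1 untreated library alone covered, such as the 238 bp peak of untreated replicate 1 at chr6:31868679-31868916 in the EHMT2 window, which met no treated peak. Such base counts were not computed for other windows. Mean coverage was higher in treated cells in 98.6% of the windows on regions of both sets, so more treated than untreated bases is the rule there.

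The order of the genes by covered length was EHMT2, EHMT1, SUV39H2 and SETDB1 in treated cells. There EHMT2 and EHMT1 overlapped, as did EHMT1 and SUV39H2, and only SETDB1 lay below its neighbour without overlap. In untreated cells the order was EHMT2, SUV39H2, EHMT1 and SETDB1. SETDB1 lay below the other 3 without overlap there. EHMT2 lay above SUV39H2 without overlap but not above EHMT1, whose replicate 1 (2788 bp) exceeded EHMT2's replicate 2 (2784 bp), and SUV39H2 and EHMT1, 269 bp apart in their means, overlapped. The separate upstream block counts toward EHMT2's place.

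Coverage of the surroundings depended on how far they were taken. In the 100 kb around the start, conditions did not overlap at 2 of the 4 genes, and 64.7% of the windows of that size on merged regions were higher in both treated libraries. EHMT1 had 19.2% ± 2.95 in treated and 10.3% ± 1.27 in untreated cells, and SUV39H2 7.59% ± 0.709 in treated and 5.22% ± 0.504 in untreated cells (SD, n = 2 each). EHMT2, with 11.5% ± 3.13 in treated and 6.69% ± 3.84 in untreated cells, and SETDB1, with 5.99% ± 1.41 in treated and 5.05% ± 1.65 in untreated cells, overlapped.

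In 1 Mb the conditions were apart at 3 of the 4 genes, against 44.7% of windows of that size that were higher in both treated libraries. In the 1 Mb around EHMT1, peaks covered 8.76% ± 1.27 in treated and 5.31% ± 2.36 in untreated cells (SD, n = 2 each). The values were 12.9% ± 3.15 in treated and 7.68% ± 2.23 in untreated cells around EHMT2, and 7.97% ± 1.98 in treated and 4.84% ± 1.66 in untreated cells around SETDB1. Around SUV39H2, unlike these 3, the conditions overlapped in 1 Mb, with 2.94% ± 0.601 in treated and 2.18% ± 0.961 in untreated cells.

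H3K9me2, the mark that EHMT1 and EHMT2 write, was not called at any of the 4 starts. Islands covered 0 bp of each window in both treated and both untreated libraries, so no test was made. An island touched 3.02% of windows on merged H3K9ac regions and 2.39% of those on regions of both sets in at least 1 of the 4 libraries, against 23.9% of 10 kb tiles of the genome. A start without a called island is thus the rule among H3K9ac windows. The lists hold islands above the authors' score minimum, so weaker H3K9me2 was not measured.

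The nearest island was far from most starts. At EHMT1 it lay 12769 and 4869 kb away in treated cells, against 470 and 2561 kb in untreated cells. SETDB1 had it at 210 and 1641 kb in treated cells and at 1166 and 1585 kb in untreated cells. At SUV39H2 it was at 693 and 725 kb in treated cells, against 522 and 34.7 kb in untreated cells. The nearest of all was that of SUV39H2 in untreated replicate 2, an island of 6500 bp at chr10:14955501-14962000. Untreated replicate 1 had none within 500 kb, so this island was in 1 of 2 replicates.

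EHMT2 was the one start whose nearest island recurred across libraries. It lay 374 and 400 kb away in treated cells and 359 kb away in untreated replicate 1, on the side of increasing coordinates, and was 97.0, 71.5 and 113 kb wide. Its far end was at 32336000, 32336500 and 32337000 on chromosome 6. Untreated replicate 2 had no island there and its nearest was 1098 kb away. Of the 1 Mb around EHMT2, islands thus covered 9.70% and 7.15% in treated cells, against 11.3% and 0% in untreated cells, and the conditions overlapped.

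**Figure D5:**
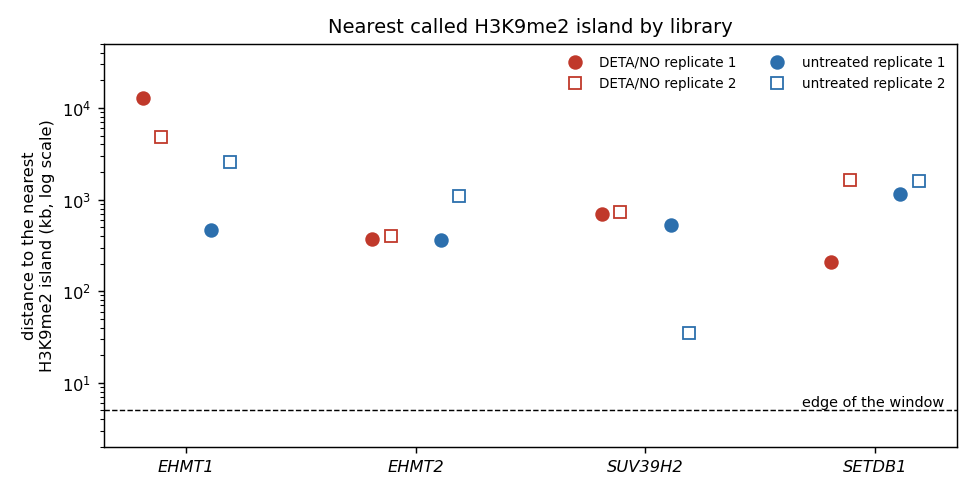
Distance in kb, on a log scale, from each gene start to the nearest called H3K9me2 island, DETA/NO left of untreated, with 1 point per library and a dashed line at the edge of the 5 kb window. All 16 points lie above the line, and the nearest is 34.7 kb from SUV39H2 in untreated replicate 2.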

How the data were processed

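Per the submitters' processing notes, Trimmomatic 0.32, BWA 0.7.5, Picard, MACS2 and SICER were used on hg19; settings, and the list that each tool made, were not given in the sources used here. Chromatin was sheared to 200 to 500 bp, per the labels' protocols. The H3K9ac library lists and the H3K9me2 island lists carry the authors' score per interval, used only for ranks within a list and to cut lists. The value per region in the 2 reproducible H3K9ac sets, 1 per condition and made from both libraries, was taken to be the authors' irreproducible discovery rate as a −log10. Other deposited columns are interval positions; H3K9me2 ends name the last base, on a 500 bp grid. No list was pooled over libraries except these sets.

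The start positions on hg19 were used as given with the gene names and not checked against an annotation. The members and lists were chosen with earlier results of these data known. All 4 members were named, and no gene by its values. Covered length was computed in Python 3.11.15 with pandas 2.3.3 and numpy 2.4.6 on 23 chromosomes, an overlap needing 1 bp. In R 4.3.3, limma 3.58.1 with its trend option was fitted to the arcsine square root of the covered share of the 4 windows and of 10 kb windows on merged regions that had coverage in at least 1 library. Code was tested on simulated data. Labels do not tie replicate numbers to a day or batch, so the fit had no block. Alternatives changed window width, list length, scaling, background, block and library. Promoter sequences, strands and neighbours came from RefSeq tables on GRCh38.p14, in which all 4 members were found.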

Additional observations from a re-analysis of the deposited data

How the results depend on the processing

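On the arcsine scale, EHMT1 (0.258, passing limma's test) no longer passed with 0.193 for the 20000 highest-scoring peaks, 0.0577 after quantile normalization, 0.258 with tiles as the other features, or from 0.200 to 0.316 with 1 library left out. EHMT2 and SUV39H2 turned to -0.0574 and -0.0482 under quantile normalization. With the replicate number as a block in limma, EHMT2 (0.178), SUV39H2 (0.146) and SETDB1 (0.167) passed, at adjusted p-values of 0.0206, 0.0208 and 0.0329. EHMT1 passed there at 0.00626. That fit called 13149 of all 21920 windows higher and 366 lower, so passing was common in it. The labels tie these numbers to no batch. Across windows, the replicate 1 libraries' deviations from their condition means correlated at -0.0806. This correlation cannot show a shift common to all windows. Replicate 1 covered more than replicate 2 in both conditions, 52.1 against 37.8 Mb in treated and 48.3 against 22.7 Mb in untreated cells. SETDB1 (0.167) also passed with windows on regions of both sets. The cause of these changes was not tested. Of 48 alternative values of the H3K9ac differences, 35 kept direction and side of the threshold. The H3K9me2 share was 0 in all of its alternatives. The count of 3 windows became 2 with windows of 10 kb either side and 4 with lists of equal length. It stayed at 3 with windows of 2 kb either side and with the 20000 highest-scoring peaks. Leaving out 1 library gave 3 or 4, under a rule that then asks less. Allowing a peak within 500 bp, which can only raise the count, took the 14 pairs with the start in a peak to 16 of 16.

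Limma called 4671 windows higher and 483 lower, with 10512 at an unadjusted p under 0.05. It called 5079 and 523 with windows of 2 kb either side, and 3385 and 221 with windows of 10 kb either side. The calls were 8466 and 285 with lists of equal length, and 400 and 694 after quantile normalization. Limma called 739 and 7 with tiles, 13149 and 366 with the block, and 3826 and 37 on regions of both sets. With the 20000 highest-scoring peaks it called 0, with 9986 at an unadjusted p under 0.05; no other tool was run. Leaving out a library leaves 1 in its condition, which is assumed to vary like the other pair. Called intervals show no level within a peak, so a base already covered cannot show more.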

Other observations

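Beside the widest peak of each window, treated lists held 25 further peaks in the 4 windows, with a median width of 211 bp. Untreated lists held 14, with a median width of 368 bp. The replicates differed. With the widest peak included, treated replicates 1 and 2 had 5 and 4 peaks at EHMT1, 8 and 3 at EHMT2, 2 and 2 at SUV39H2, and 6 and 3 at SETDB1. Untreated replicates 1 and 2 had 3 and 2, 6 and 3, 2 and 4, and 1 and 1 in the same order of genes. Such counts were not computed for other windows. The treated reproducible region at SUV39H2 ranked 10806 of 21096 by the authors' −log10 rate (5.12), although its library peaks ranked 489 of 79520 and 554 of 69089 by score. That of EHMT1 ranked 80 of 21096 (6.23), from library peaks at ranks 1013 and 1347. In the untreated set the 2 regions ranked 2019 and 288 of 14351.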
